A study of Rattus norvegicus with 12 samples.

Results

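Interferon-stimulated effector genes are the antiviral and regulatory genes that cells switch on when an interferon receptor signals. They were chosen here by name from a list of 42 symbols. The deposited expression table held 1 row for 39 of them, out of 18344 rows in all. Ddx60, Oas1b and Oas3 were not analysed here. Interferon binding activates Janus kinases at the receptor, and the signal leads to assembly of the transcription factor complex ISGF3, which contains STAT2 and IRF9 and binds the interferon-stimulated response element (ISRE) in the promoters of these genes. Their products block viral entry, degrade or edit RNA, stop translation, attach the ubiquitin-like protein ISG15 to other proteins and limit the response again.

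The RNA came from cells that the titles call H9C2, a myoblast line from embryonic rat heart, subjected to OGD/R (oxygen-glucose deprivation followed by reperfusion), a culture model of ischaemia. All 4 groups had OGD/R and held 3 libraries each, which the labels call biological replicates. The groups were OGD/R + CIRBP, OGD/R + NC, OGD/R + si-CIRBP and OGD/R + si-NC, named below by the part after OGD/R. By their names NC is the control of CIRBP, and si-NC that of si-CIRBP, and these pairs are called the 2 arms below. The sample labels give no vector, dose or time. The column headers of the table put the prefix ad before NC and CIRBP but not before the si groups, and nothing in the sources used here explains it. Cirbp encodes a cold-inducible RNA-binding protein, and the comparisons ask what changes when it is added or targeted under OGD/R. Cells that had not been through OGD/R were not analysed here.

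The target itself stood at 34.3, 36.5 and 36.5 FPKM (fragments mapped to a gene, scaled by its length and by the library's total) in the CIRBP libraries, against 19.0, 19.8 and 20.1 FPKM in NC. In the libraries labelled si-CIRBP it stood at 26.5, 28.6 and 27.7 FPKM, against 29.0, 24.2 and 27.0 FPKM in si-NC (log2 fold change 0.05, adjusted p = 0.609 with limma). Cirbp mRNA thus did not show the fall that the label si-CIRBP implies, and its values overlapped those of si-NC. The si-CIRBP group is therefore written as labelled si-CIRBP throughout. The labels also give rat astrocytes as the cell line. Of 13 cardiac and skeletal muscle markers 9 had a row. Only 3 of these reached a mean of 1 FPKM in CIRBP and in NC, against 7 in labelled si-CIRBP and 6 in si-NC. Their summed level was 51.3 to 53.0 FPKM in CIRBP and 37.2 to 38.4 FPKM in NC. It was 54.45 to 177 FPKM in labelled si-CIRBP and 42.3 to 143 FPKM in si-NC. The heart factor Nkx2-5 was listed at 0 in every CIRBP and NC library, and stood at 0.0537 to 1.97 FPKM in the si groups. Of 8 astrocyte markers 7 had a row, with a summed level of 283 to 301 FPKM in CIRBP, 191 to 204 FPKM in NC, 209 to 223 FPKM in labelled si-CIRBP and 166 to 197 FPKM in si-NC. This sum was thus higher in both groups in which the interferon-stimulated genes were lower. Not every marker shared this in labelled si-CIRBP against si-NC. There S100b, the largest term, overlapped, at 111, 149 and 155 FPKM against 165, 116 and 133 FPKM. Aldoc did not overlap, at 66.3, 33.7 and 32.2 FPKM against 16.6, 9.32 and 11.9 FPKM. Of the 7 markers 4 reached a mean of 1 FPKM in CIRBP and in NC, and 5 in each si group. The arms also differed in muscle markers. The summed level of 4 smooth muscle markers was 2.98 to 3.59 FPKM in CIRBP and 5.45 to 7.61 FPKM in NC, but 687 to 877 FPKM in labelled si-CIRBP and 109 to 1362 FPKM in si-NC. The 109 FPKM belonged to si-NC library 1, whose expression over all tested genes correlated with each NC library at r = 0.976 and with si-NC libraries 2 and 3 at 0.951 and 0.971. Library 1 labelled si-CIRBP also stood apart from libraries 2 and 3 of its group (r = 0.971 and 0.970, against 0.991 between those). Of 10 macrophage and leukocyte markers 4 had a row, with a summed level of 16.7 to 18.2 FPKM in CIRBP, 13.2 to 13.8 FPKM in NC, 16.6 to 18.7 FPKM in labelled si-CIRBP and 18.7 to 19.8 FPKM in si-NC. The part of these markers in the results below was not tested. Summed expression was 457775 to 502889 FPKM per library. FPKM hold no absolute depth. The step sizes seen among low values gave relative depths between 0.842 and 1.03, with NC library 1 as the unit.

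The promoter search below covers genes listed as interferon-stimulated and chosen with earlier results of these data known. RefSeq promoter windows of build GRCr8, from 250 bases before to 50 bases after the gene start, were matched by symbol for 32 of the 39 genes. Adar, Ifit2, Isg15, Mx2, Oas2, Rtp4 and Usp18 had no entry. The core of the ISRE was searched as 2 GAAA blocks with 2 bases of any kind (NN) between them, on both strands, overlapping matches included. It was present in 22 of the 32 windows (68.8%), against 1312 of 33469 RefSeq windows of the same length (3.92%). The second interferon element, the gamma-activated sequence (GAS), was searched as TTCNNNGAA, which reads the same on both strands, and was present in 7 of the 32 windows (21.9%) against 8.87% of all windows. Both motifs stood in 6 of the 32 windows (18.8%), against 172 of all 33469 windows (0.514%). A match is a run of letters and not a shown binding site.

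The windows below are those of 3 genes that fell far in both arms (Samd9, Ifit3 and Oas1a) and of 3 whose fall differed between the arms (Isg20, Bst2 and Trim21). These sets are not exclusive. The test of the difference, given further below, also called Ifit3 and Oas1a, and Trim21 was close to its threshold. Each is given 5′ to 3′ on the strand of its gene, with the ISRE core in capitals. The windows lie at chr4:32138909-32139208, minus strand (Samd9), chr1:241527076-241527375, plus strand (Ifit3), chr12:41330216-41330515, plus strand (Oas1a), chr1:142239809-142240108, plus strand (Isg20), chr16:18254918-18255217, minus strand (Bst2), and chr1:166399322-166399621, minus strand (Trim21).
Samd9: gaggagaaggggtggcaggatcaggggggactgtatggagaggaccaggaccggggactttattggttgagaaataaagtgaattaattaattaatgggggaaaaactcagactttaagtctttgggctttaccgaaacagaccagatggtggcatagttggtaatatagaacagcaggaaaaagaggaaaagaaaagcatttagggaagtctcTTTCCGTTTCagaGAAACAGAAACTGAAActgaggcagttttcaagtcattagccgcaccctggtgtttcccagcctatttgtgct
Ifit3: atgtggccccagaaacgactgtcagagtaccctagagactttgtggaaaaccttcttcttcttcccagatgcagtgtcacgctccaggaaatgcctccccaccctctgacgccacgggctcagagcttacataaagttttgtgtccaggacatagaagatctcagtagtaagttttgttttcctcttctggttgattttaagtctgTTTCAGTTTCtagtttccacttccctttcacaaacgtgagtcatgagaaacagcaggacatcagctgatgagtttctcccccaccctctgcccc
Oas1a: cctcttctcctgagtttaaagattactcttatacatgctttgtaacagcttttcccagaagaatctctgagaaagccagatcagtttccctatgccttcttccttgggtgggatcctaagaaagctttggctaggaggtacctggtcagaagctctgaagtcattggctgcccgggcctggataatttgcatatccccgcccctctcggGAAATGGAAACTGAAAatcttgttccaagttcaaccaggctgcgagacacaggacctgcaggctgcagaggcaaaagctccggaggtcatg
Isg20: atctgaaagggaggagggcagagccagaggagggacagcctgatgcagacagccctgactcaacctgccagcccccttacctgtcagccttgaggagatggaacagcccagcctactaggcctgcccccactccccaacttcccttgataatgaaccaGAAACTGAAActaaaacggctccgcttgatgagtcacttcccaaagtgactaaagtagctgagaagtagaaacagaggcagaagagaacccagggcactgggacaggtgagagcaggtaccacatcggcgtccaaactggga
Bst2: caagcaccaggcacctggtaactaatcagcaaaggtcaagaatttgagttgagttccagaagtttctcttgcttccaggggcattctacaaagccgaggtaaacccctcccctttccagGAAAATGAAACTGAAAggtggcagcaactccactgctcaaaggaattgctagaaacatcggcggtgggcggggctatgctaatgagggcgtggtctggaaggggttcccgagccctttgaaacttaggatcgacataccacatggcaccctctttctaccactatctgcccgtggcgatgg
Trim21: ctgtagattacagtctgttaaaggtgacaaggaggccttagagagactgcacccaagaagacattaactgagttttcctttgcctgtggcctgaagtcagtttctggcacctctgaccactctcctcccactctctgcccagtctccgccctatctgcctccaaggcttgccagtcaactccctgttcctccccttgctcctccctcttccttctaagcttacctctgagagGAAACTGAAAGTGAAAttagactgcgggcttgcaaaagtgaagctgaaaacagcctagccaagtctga
In Samd9 the core occurred 3 times, starting at positions -36, -23 and -17 from the gene start, of which the first lies on the opposite strand and the last 2 overlap. Oas1a, Bst2 and Trim21 each held 2 overlapping copies, which together read as 3 GAAA blocks in a row. Isg20 held a single copy at -92 and Ifit3 a single copy on the opposite strand at -44. In all, the 22 windows held 30 matches, of which 22, in 17 genes, started between -100 and -1. The median log2 fold change of tested genes with a match was -1.69 in CIRBP against NC and -1.80 in labelled si-CIRBP against si-NC (21 genes). Without a match it was -1.38 and -1.57 (9 genes), and the ranges overlapped. Mx1 and Oasl, which fell strongly, had no match in these windows.

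**Figure D1:**
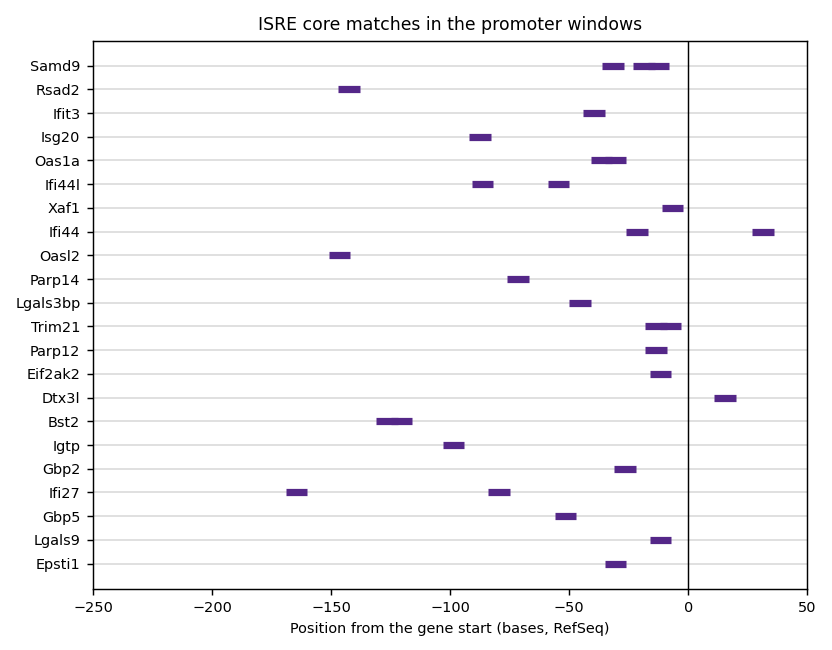
Positions of the ISRE core (purple bars) in the promoter windows of the 22 genes that hold it, in bases from the RefSeq gene start (x axis, black line at the start), with genes ordered from the largest to the smallest fall in CIRBP against NC and the untested Epsti1 last. Of 30 matches, 22 start between -100 and -1.

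In CIRBP against NC every tested interferon-stimulated gene fell. Of the 39 genes, 37 had at least 1 FPKM in 3 or more libraries and were tested, and all 37 were called lower (limma, adjusted p under 0.05), with none higher. Over all tested genes 34.2% were called lower and 19.7% higher. Their log2 fold changes ran from -5.02 to -0.50 with a median of -1.66, against a median of -0.08 over all genes, with 33 at or below -1 (5.53% of all tested genes) and 14 at or below -2 (0.61%). The 3 CIRBP libraries lay below the 3 NC libraries for all 39 genes, including the untested Ifi47 and Epsti1 (45.0% of all tested genes). Ifi47, an immunity-related GTPase, was at 0.108 to 0.153 FPKM in CIRBP and 0.353 to 0.551 FPKM in NC, and Epsti1 was under 0.5 FPKM in every library. The filter bears on these counts, since 7 of the 37 (Mx1, Ifi44l, Oas2, Oasl, Ifit3, Rsad2 and Lgals9) passed it only through the control libraries, and Lgals9 only through si-NC. In a fit of all 18344 rows, 37 of the 39 were called lower. From bulk RNA, fewer responding cells and less RNA per cell cannot be told apart.

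In labelled si-CIRBP against si-NC the same 37 tested genes were also all called lower, although Cirbp mRNA was not. Over all tested genes 20.5% were called lower there and 9.08% higher. The log2 fold changes ran from -5.11 to -0.82 with a median of -1.80, against -0.04 over all genes, with 35 at or below -1 (1.28% of all tested genes) and 17 at or below -2 (0.203%). All 3 libraries of the group lay below all 3 si-NC libraries for the 39 genes (24.3% of all tested genes). Libraries within the si groups spread more widely. The median SD of these genes on the log2 scale was 0.237 in labelled si-CIRBP and 0.188 in si-NC, against 0.0577 in CIRBP and 0.0668 in NC. A shared estimate of spread therefore favours calls in comparisons that use the si groups, and their adjusted p-values and shares of all genes called are too favourable. In a fit of its 6 libraries alone 889 genes were called lower in place of 2924, with all 37 tested genes still called lower. Across the 37 genes the log2 fold changes of the 2 arms, which have separate controls, had a Pearson correlation of 0.854 and a Spearman correlation of 0.784, as a description over genes that share libraries within each arm.

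**Figure D2:**
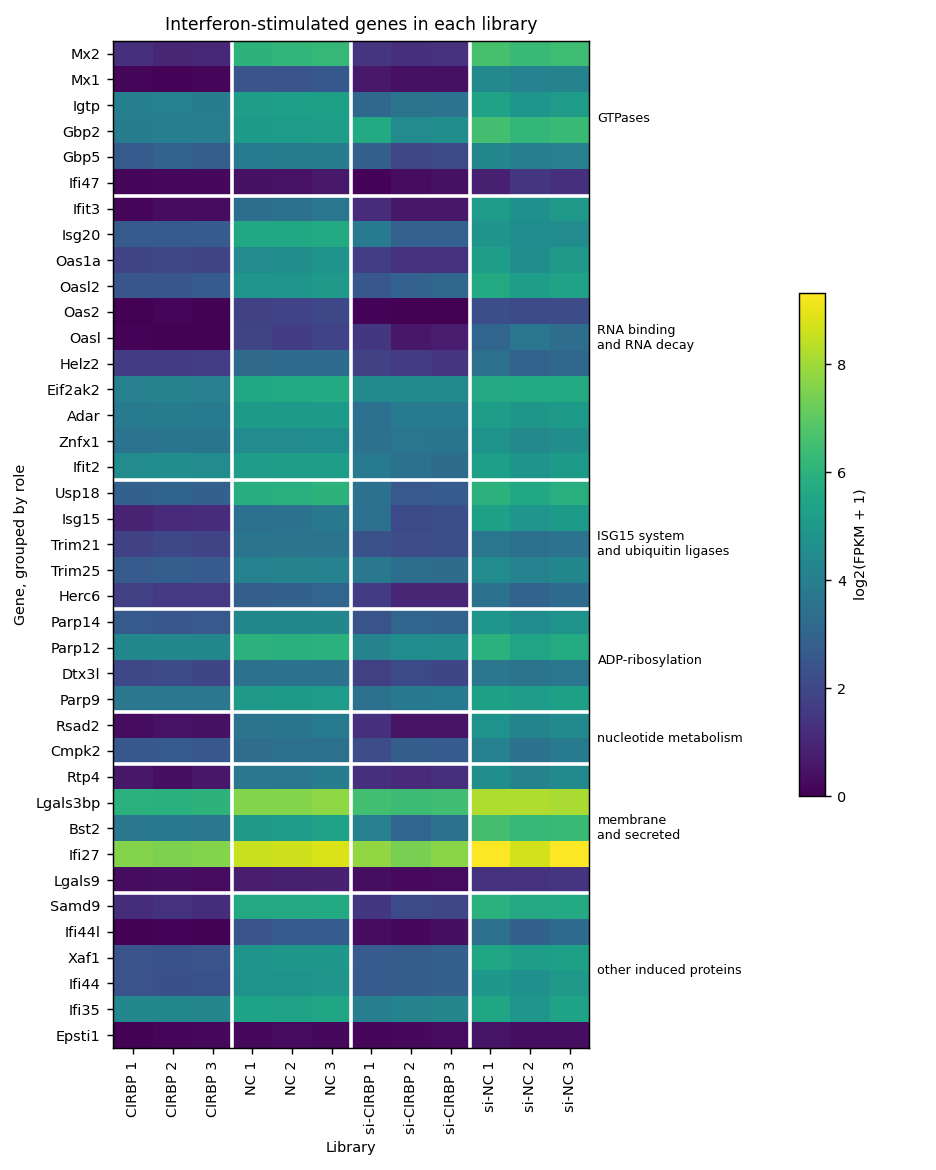
Expression of the 39 genes (rows, grouped by role) in the 12 libraries (columns, by group) as log2(FPKM + 1), from dark (0) to yellow (high). In every row the CIRBP columns are darker than the NC columns and the si-CIRBP columns darker than the si-NC columns, and Ifi27 and Lgals3bp are the brightest rows in each group.

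Among the GTPases, Mx2 had the largest change of the 37 genes in both arms on the log2(FPKM + 1) scale. By the ratio of means Ifi44l (142 times lower), Oas2 (66.8) and Mx1 (60.5) fell further in CIRBP than Mx2 (59.5), from lower levels. Mx proteins are dynamin-like GTPases that trap viral components. Mx2 stood at 1.38, 1.01 and 1.08 FPKM in CIRBP, against 64.2, 68.8 and 73.5 FPKM in NC (limma log2 fold change -5.02 with an SE of 0.0916, adjusted p = 3.98e-10). It stood at 1.71, 1.48 and 1.52 FPKM in labelled si-CIRBP, against 98.1, 80.0 and 85.9 FPKM in si-NC (log2 fold change -5.11, SE 0.0916, adjusted p = 3.29e-10). The groups lie far apart in both arms, with 1.68% of the NC mean left in CIRBP and 1.78% of the si-NC mean left in labelled si-CIRBP. Mx1 was at 0.0915, 0.0540 and 0.0821 FPKM in CIRBP, against 4.53, 4.34 and 4.90 FPKM in NC. In the other arm Mx1 was at 0.552, 0.347 and 0.327 FPKM in labelled si-CIRBP, against 20.1, 16.7 and 17.0 FPKM in si-NC. The guanylate-binding proteins, which attack vacuoles and membranes of pathogens, kept more of their level. Gbp2 was at 14.4, 14.9 and 14.8 FPKM in CIRBP, against 33.1, 33.5 and 36.9 FPKM in NC (log2 fold change -1.17). Gbp2 was at 51.0, 21.6 and 23.6 FPKM in labelled si-CIRBP, against 92.4, 72.3 and 78.0 FPKM in si-NC (log2 fold change -1.41), with library 1 far above the other 2. Gbp5 was at 5.29 to 6.91 FPKM in CIRBP, against 13.2 to 14.2 FPKM in NC, and at 2.97 to 6.35 FPKM in labelled si-CIRBP, against 15.02 to 18.8 FPKM in si-NC. Gbp5 and the immunity-related GTPase Igtp fell with log2 fold changes of -1.06 and -1.22 in CIRBP and -1.80 and -1.68 in labelled si-CIRBP.

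The 11 genes whose products bind, edit or degrade RNA were all called lower in both arms, with medians of -1.74 and -1.57. The oligoadenylate synthetases sense double-stranded RNA and activate the ribonuclease RNase L. Oas1a stood at 2.77, 2.92 and 2.81 FPKM in CIRBP, against 21.9, 23.2 and 25.9 FPKM in NC (log2 fold change -2.68). In labelled si-CIRBP it stood at 2.36, 1.5 and 1.56 FPKM, against 35.6, 23.2 and 31.6 FPKM in si-NC (-3.46). Oas2 came close to 0, at 0.0116, 0.0860 and 0.0267 FPKM in CIRBP against 2.5, 2.7 and 3.11 FPKM in NC. In the other arm it was at 0.0593 FPKM, listed at 0, and at 0.0133 FPKM in libraries 1, 2 and 3 labelled si-CIRBP, against 3.24 to 3.69 FPKM in si-NC. Ifit3 and Ifit2 belong to a family of tetratricopeptide proteins of which some bind foreign RNA ends, and their sizes of change differed. Ifit3 was at 0.132, 0.227 and 0.247 FPKM in CIRBP, against 9.44, 9.95 and 11.8 FPKM in NC (-3.24). It was at 1.28, 0.530 and 0.511 FPKM in labelled si-CIRBP, against 34.7, 24.5 and 31.2 FPKM in si-NC (-4.15). Ifit2 kept 61.7% of its NC mean in CIRBP and 32.7% of its si-NC mean in labelled si-CIRBP. The kinase Eif2ak2 (PKR), which halts translation on double-stranded RNA, and Adar, which edits such RNA, fell with log2 fold changes of -1.56 and -1.20 in CIRBP and -1.19 and -1.37 in labelled si-CIRBP. The helicase Helz2 fell by nearly the same amount in each arm (-1.58 and -1.57), at 2.14 to 2.26 FPKM in CIRBP, against 8.47 to 8.64 FPKM in NC, and at 1.75 to 2.51 FPKM in labelled si-CIRBP, against 6.90 to 10.01 FPKM in si-NC. Znfx1, a helicase that senses viral RNA at mitochondria, fell less (-0.89 and -0.99). The synthetase-like genes Oasl and Oasl2 had log2 fold changes of -1.74 and -2.35 in CIRBP and -2.39 and -2.56 in labelled si-CIRBP. These values understate the fall of Oasl, which was at 0.0391 to 0.0613 FPKM in CIRBP, against 2.13 to 2.77 FPKM in NC. By the ratio of means Oasl was 52.8 times lower in CIRBP and 9.17 times in labelled si-CIRBP. For Oasl2 the ratios were 5.93 and 6.63. Members of the Mx, Ifit, Oas and Gbp families resemble each other, and the sources used here do not say how reads shared between them were counted, so single members are uncertain.

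The 5 genes of the ISG15 system and of ubiquitin ligases were also all called lower in both arms, with medians of -1.66 and -2.03. ISG15 is a ubiquitin-like modifier, and the protease USP18 removes it and also restrains the interferon receptor. Isg15 was at 0.924, 1.14 and 1.27 FPKM in CIRBP, against 9.61, 10.2 and 12.8 FPKM in NC (limma log2 fold change -2.48 with an SE of 0.286, adjusted p = 3.59e-05). In labelled si-CIRBP it was at 9.61, 3.27 and 3.77 FPKM, against 39.5, 28.0 and 33.3 FPKM in si-NC (-2.51, SE 0.286, adjusted p = 0.000162), so that library 1 was the highest of its group but still below si-NC. Usp18 was at 6.51, 7.03 and 6.35 FPKM in CIRBP, against 54.9, 57.9 and 64.5 FPKM in NC. It was at 10.3, 5.16 and 5.53 FPKM in labelled si-CIRBP, against 62.9, 47.5 and 56.8 FPKM in si-NC. Usp18 thus kept 11.2% of the NC mean and 12.5% of the si-NC mean. On the log2(FPKM + 1) scale the ligases Herc6, Trim21 and Trim25 fell by less, with log2 fold changes of -1.29, -1.66 and -1.41 in CIRBP and -2.03, -1.31 and -0.82 in labelled si-CIRBP. By the ratio of means, however, Herc6 kept 16.0% of its si-NC mean in labelled si-CIRBP, near the 16.5% of Isg15.

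The ADP-ribosylation genes were the most even group. Parp9 and its partner Dtx3l form a complex that modifies histones and ubiquitin, and Parp14 and Parp12 are further ADP-ribosyltransferases. Their log2 fold changes lay between -1.70 and -1.38 in CIRBP and between -1.91 and -1.28 in labelled si-CIRBP. Parp12, the most abundant of the 4 in all groups, was at 18.5 to 19.4 FPKM in CIRBP, against 60.3 to 62.3 FPKM in NC. It was at 17.2 to 23.1 FPKM in labelled si-CIRBP, against 43.2 to 60.6 FPKM in si-NC. Of the 2 genes of nucleotide metabolism, Rsad2 (viperin), which makes a chain-terminating nucleotide, was at 0.239, 0.371 and 0.329 FPKM in CIRBP, against 11.1, 11.4 and 13.2 FPKM in NC. It was at 1.38, 0.406 and 0.401 FPKM in labelled si-CIRBP, against 26.3, 17.3 and 21.1 FPKM in si-NC. Cmpk2, a mitochondrial nucleotide kinase, fell much less, with log2 fold changes of -0.80 in CIRBP and -1.25 in labelled si-CIRBP, and kept 52.9% of its NC mean and 37.6% of its si-NC mean.

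Membrane and secreted proteins held both the highest levels and a wide range of falls. Ifi27, a small mitochondrial and nuclear membrane protein, was the most abundant of the 39 genes in all 4 groups, at 195, 181 and 192 FPKM in CIRBP and 377, 398 and 445 FPKM in NC. In the other arm it was at 223, 171 and 205 FPKM in labelled si-CIRBP and 636, 411 and 644 FPKM in si-NC. Lgals3bp, a secreted glycoprotein that binds galectins, came next at 60.8, 59.6 and 64.4 FPKM in CIRBP, against 196, 195 and 212 FPKM in NC. It was at 89.1, 83.1 and 87.1 FPKM in labelled si-CIRBP, against 294, 294 and 281 FPKM in si-NC, a fall of nearly the same size (log2 fold changes -1.69 and -1.73, SE 0.0511 each). Rtp4, a receptor transporter protein with antiviral activity, was at 0.507, 0.316 and 0.504 FPKM in CIRBP, against 12.1, 11.8 and 14.4 FPKM in NC (-3.25). In labelled si-CIRBP it was at 1.43, 1.19 and 1.43 FPKM, against 23.8, 17.0 and 21.0 FPKM in si-NC (-3.19). Because of the unequal falls, the order of levels changed. Ifit2 ranked 12 of 39 in NC but 3 in CIRBP, where only Ifi27 and Lgals3bp were higher.

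Among the other induced proteins, Samd9, a large cytoplasmic protein that restricts poxviruses, came second to Mx2 in CIRBP on the log2(FPKM + 1) scale. By the ratio of means it was 34.4 times lower, behind 7 genes, and with a pseudocount of 0.1 Ifi44l (-5.26) and Ifit3 (-5.13) also passed it (-5.01). Samd9 was at 1.34, 1.58 and 1.35 FPKM in CIRBP, against 48.4, 48.8 and 50.01 FPKM in NC (limma log2 fold change -4.37 with an SE of 0.134, adjusted p = 9.43e-09). In labelled si-CIRBP it was at 1.88, 3.27 and 3.01 FPKM, against 60.9, 48.4 and 51.6 FPKM in si-NC (-3.89). Xaf1, an antagonist of the apoptosis inhibitor XIAP, was at 4.28, 4.11 and 4.56 FPKM in CIRBP, against 27.6, 29.4 and 30.2 FPKM in NC. It was at 5.48, 5.70 and 6.24 FPKM in labelled si-CIRBP, against 43.9, 36.0 and 38.5 FPKM in si-NC, with 14.8% and 14.7% of the control mean left. Ifi44l was at 0.0253, 0.0537 and 0.0292 FPKM in CIRBP, against 4.54, 5.21 and 5.58 FPKM in NC, and at 0.233, 0.152 and 0.291 FPKM in labelled si-CIRBP, against 9.76, 6.42 and 8.49 FPKM in si-NC. Its neighbour in name, Ifi44, kept 15.2% and 20.1%. Ifi35, an interferon-induced leucine zipper protein, fell by 1.11 and 1.12 on the log2 scale. In 11 tested genes, Mx2, Mx1, Samd9, Rsad2, Rtp4, Ifit3, Ifi44l, Isg15, Oas2, Oasl and Lgals9, the CIRBP mean was under 1.5 FPKM, where log2(FPKM + 1) understates the change.

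**Figure D3:**
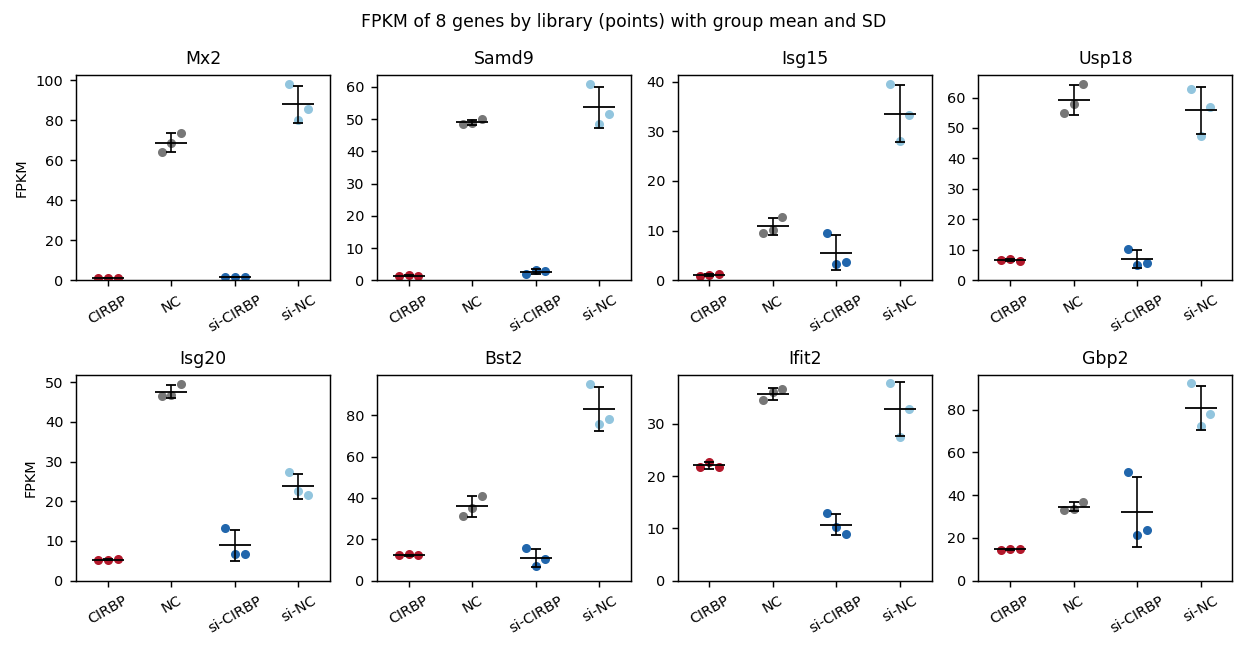
FPKM of 8 genes in every library (points, libraries 1 to 3 from left to right) with the mean and SD of each group of 3 (black). In CIRBP against NC and in si-CIRBP against si-NC the groups do not overlap for any of the 8, and library 1 labelled si-CIRBP lies above libraries 2 and 3 for Isg15, Usp18, Isg20, Bst2 and Gbp2.

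Whether a gene fell by the same amount in both arms was tested as the difference of the 2 log2 fold changes, CIRBP minus NC less si-CIRBP minus si-NC. Of the 37 genes, 6 were called with a positive difference, which is a larger fall in labelled si-CIRBP, and 4 with a negative difference, which is a larger fall in CIRBP. Over all tested genes 6.87% and 10.9% were called in these directions, so the share of negative calls was near that of all genes. Bst2 (tetherin), which holds budding virions on the cell surface, had the largest positive difference (1.40, SE 0.293, adjusted p = 0.00912 with limma). It was at 12.2, 12.7 and 12.2 FPKM in CIRBP, against 31.4, 35.1 and 41.0 FPKM in NC. It was at 15.5, 7.16 and 10.3 FPKM in labelled si-CIRBP, against 95.1, 75.7 and 78.0 FPKM in si-NC. The libraries of CIRBP lay within the range of those labelled si-CIRBP, while all of si-NC lay above NC. Ifit2 differed by 0.86 (SE 0.18, adjusted p = 0.00922). Its values were 21.7, 22.8 and 21.7 FPKM in CIRBP, against 34.5, 36.1 and 36.6 FPKM in NC. They were 13.0, 10.3 and 8.90 FPKM in labelled si-CIRBP, against 37.8, 27.5 and 32.9 FPKM in si-NC. Here the NC values lay within the range of si-NC, while all libraries labelled si-CIRBP lay below CIRBP. Lgals9, a galectin, differed by 0.59 (adjusted p = 0.0129), at 0.231, 0.258 and 0.210 FPKM in CIRBP, against 0.690, 0.748 and 0.804 FPKM in NC. It was at 0.274, 0.171 and 0.223 FPKM in labelled si-CIRBP, against 1.58, 1.57 and 1.67 FPKM in si-NC. Oas1a differed by 0.78 (adjusted p = 0.0309).

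Mx1 and Ifit3 were called with differences of 1.37 (adjusted p = 0.000323 with limma) and 0.91 (adjusted p = 0.0267), but these rest on the scale. As a ratio of group means Mx1 was 60.5 times lower in CIRBP and 43.9 times lower in labelled si-CIRBP, and Ifit3 51.3 and 38.9 times lower. With a pseudocount of 0.1 the differences were 0.43 (adjusted p = 0.303) and 0.08 (adjusted p = 0.925).

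Isg20, an exonuclease that degrades single-stranded RNA, had the largest negative difference (-1.56, SE 0.282, adjusted p = 0.00475 with limma). It was at 5.29, 5.21 and 5.34 FPKM in CIRBP, against 46.7, 46.7 and 49.7 FPKM in NC, or 9.03 times lower. It was at 13.2, 6.67 and 6.65 FPKM in labelled si-CIRBP, against 27.4, 22.5 and 21.5 FPKM in si-NC, or 2.69 times lower. Eif2ak2 differed by -0.36 (SE 0.0677, adjusted p = 0.0054). Its values were 15.8, 17.0 and 15.8 FPKM in CIRBP, against 47.4, 49.9 and 51.5 FPKM in NC, and 21.0, 20.5 and 21.2 FPKM in labelled si-CIRBP, against 48.1, 49.5 and 49.7 FPKM in si-NC. The ubiquitin ligases Trim25 (-0.59, adjusted p = 0.0402) and Trim21 (-0.35, adjusted p = 0.0399) were close to the threshold. Trim25 was at 5.28, 6.10 and 5.45 FPKM in CIRBP, against 16.1, 17.0 and 16.4 FPKM in NC, and at 12.4, 9.27 and 8.88 FPKM in labelled si-CIRBP, against 21.4, 16.1 and 18.5 FPKM in si-NC. Trim21 was at 2.60, 3.04 and 2.80 FPKM in CIRBP, against 11.0, 11.1 and 11.1 FPKM in NC, and at 3.92, 3.61 and 3.69 FPKM in labelled si-CIRBP, against 11.6, 9.89 and 10.9 FPKM in si-NC. In both arms the groups did not overlap for either gene. The calls for the difference of Trim21, Trim25, Oas1a and Ifit3 depended on single libraries. Those of Bst2, Isg20, Eif2ak2, Ifit2, Mx1 and Lgals9 held without each single library. Trim21 lost its call without any of 9 of the 12 libraries (all but CIRBP 2, si-NC 1 and si-CIRBP 1), Trim25 without any of 8 (all but si-NC 1 and the 3 labelled si-CIRBP), Oas1a without any of 8 (all but NC 3, si-NC 1, si-NC 2 and si-CIRBP 1) and Ifit3 without any of 7 (all but NC 3, CIRBP 1, si-NC 1, si-NC 2 and si-CIRBP 1). The adjusted p values then lay between 0.0548 and 0.104. Without library 1 labelled si-CIRBP, 11 positive and 6 negative differences were called, the added ones being Oasl, Rsad2, Herc6, Gbp2, Gbp5, Samd9 and Parp12. Calls over all 14257 genes also grew then, to 1827 positive and 2676 negative, against 980 and 1555 with all libraries. Without si-NC library 2 there were 10 positive and 2 negative, against 1190 and 1586 over all genes. Ifi44l was among the positive ones there. By the ratio of group means with all libraries, Oasl and Ifi44l were 52.8 and 142 times lower in CIRBP. In labelled si-CIRBP they were 9.17 and 36.5 times lower, so the positive sign of both rests on the scale. The p for the other 27 genes missed the threshold, which does not show equal falls. For Isg15, for example, the difference was 0.03 with an SE of 0.404.

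**Figure D4:**
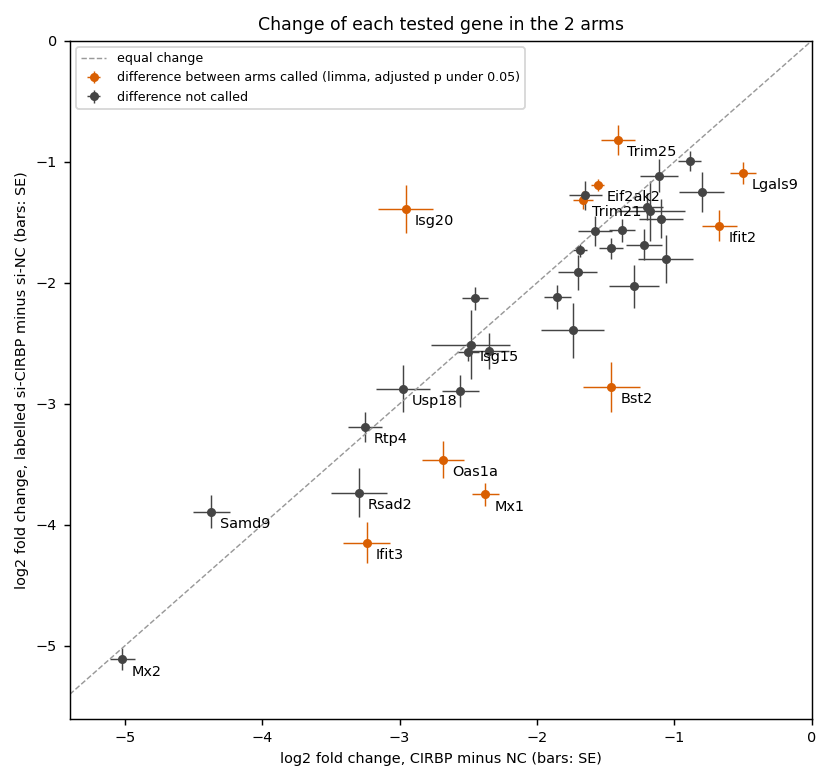
Log2 fold change of the 37 tested genes in CIRBP against NC (x axis) and in labelled si-CIRBP against si-NC (y axis), on the log2(FPKM + 1) scale with SE bars and a dashed line of equal change. All points lie below 0 on both axes, and the 10 genes whose difference between the arms was called are in orange, Isg20 above the line and Bst2 and Mx1 below it.

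Library 1 labelled si-CIRBP did not shift all of these genes alike. Against the mean of libraries 2 and 3 of its group, 13 genes were over 1.5 times higher in it and 5 under the inverse of that ratio. The shares over all tested genes were not computed. Over all tested genes this library also stood apart, with r = 0.971 and 0.970 to libraries 2 and 3, against 0.991 between those. The 13 were Oas2, Rsad2, Oasl, Isg15, Ifit3, Gbp2, Herc6, Gbp5, Isg20, Usp18, Bst2, Mx1 and Oas1a, with ratios of 8.92 for Oas2, which rests on values under 0.1 FPKM, and of 1.54 to 3.43 for the others. Samd9, Parp14, Cmpk2, Oasl2 and Ifi47 were the 5 lower ones, with ratios of 0.253 for Ifi47, whose values were under 1 FPKM, and 0.599 to 0.661 for the others. The 4 ADP-ribosylation genes and Adar all had ratios under 1. Irf1, a transcription factor induced by interferon gamma and chosen here after its values were seen, was at 65.5 FPKM in library 1 and at 22.8 and 22.7 FPKM in libraries 2 and 3. With this library left out, all 37 tested genes were still called lower in the arm. In si-NC the spread had another form. Library 2 was the lowest of the 3 for 34 of the 39 genes and library 1 the highest for 33. This was the reverse of their smooth muscle markers, whose part in it was not tested. The NC libraries, which spread less, were ordered as well. There library 3 was the highest for 33 of the 39 genes and library 1 the lowest for 30. Shares over all genes were not computed for these counts either.

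**Figure D5:**
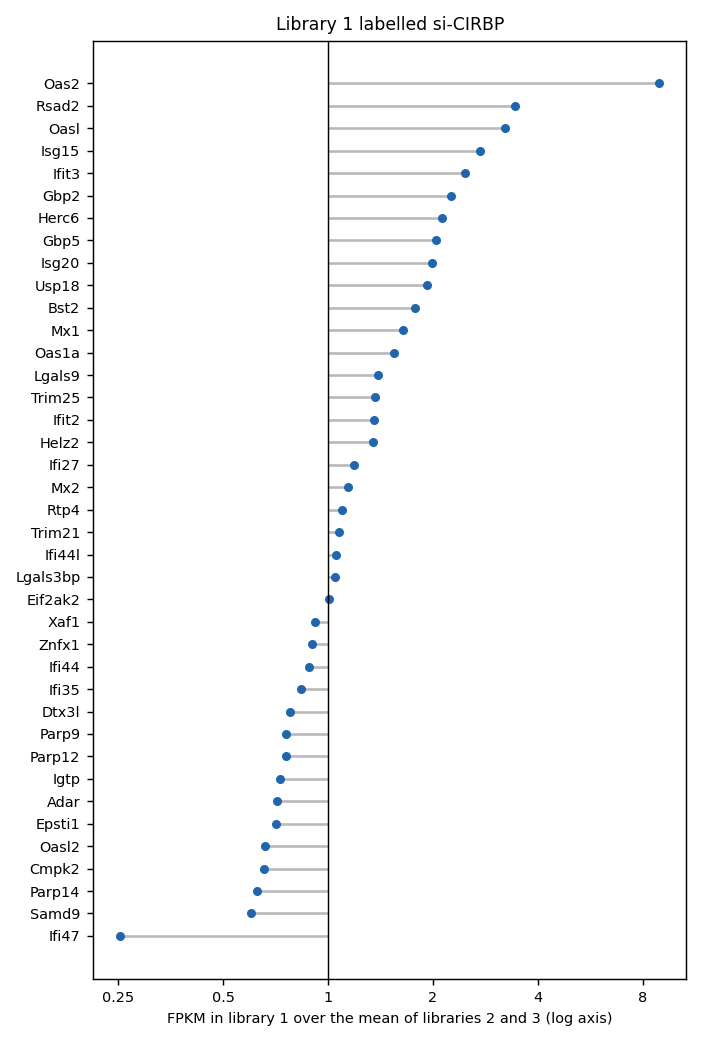
FPKM of each of the 39 genes in library 1 labelled si-CIRBP over the mean of libraries 2 and 3 of the same group, on a log axis with a line at 1. The points run from 0.253 (Ifi47) to 8.92 (Oas2), both at low FPKM, with the ADP-ribosylation genes below 1 and Isg15, Usp18 and Gbp2 above it.

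The control groups did not start from the same level. In si-NC against NC, 15 of the 37 tested genes were called higher and 1, Isg20, lower, against 12.5% and 21.9% of all tested genes. This comparison shares its libraries with both arms. Mx1 was 3.91 times higher in si-NC (log2 fold change 1.76, adjusted p = 1.03e-05 with limma), Oasl 3.69 times, Isg15 3.09 times and Ifit3 2.90 times. Gbp2 and Bst2 were 2.34 and 2.31 times higher. Isg20 averaged 23.8 ± 3.16 FPKM in si-NC, against 47.7 ± 1.73 FPKM in NC (SD, n = 3 each; log2 fold change -0.98, adjusted p = 0.00499). Eif2ak2, Adar, Usp18, Helz2, Trim21, Ifi44 and Znfx1 were within 0.1 of 0 on the log2 scale, with SEs of 0.0479 to 0.195. The call of Mx2 was lost without NC library 1, that of Oasl2 without NC 1, NC 2, si-NC 1 or si-NC 3, and that of Parp14 without any of 8 libraries (all but si-NC 2 and the 3 labelled si-CIRBP). Without si-NC library 1, a second gene, Parp12, was called lower (-0.36, adjusted p = 0.0326).

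Upstream of these genes only part of the tested genes were called lower in each arm. Of 34 interferon signalling genes with a row, from ligands and receptors to RNA sensors, 30 were tested. In CIRBP against NC 15 were called lower and 6 higher, with a median log2 fold change of -0.26, where 34.2% and 19.7% of all tested genes were called. The share called higher was thus near that of all genes. In labelled si-CIRBP against si-NC 12 were called lower, none higher and 18 were not called, with a median of -0.17. Of all tested genes 20.5% were called lower there and 9.08% higher. The 6 called higher in CIRBP, named after their values were seen, were Socs3 (log2 fold change 1.16) and Socs1 (0.85), which inhibit cytokine receptor signalling, the phosphatase Ptpn6 (0.86), the transcription factor Irf3 (0.84), the receptor chain Ifnar1 (0.52) and the kinase Jak1 (0.15). Of these, Socs3 and Jak1 also lay above si-NC without overlap in labelled si-CIRBP, but were not called (limma, adjusted p = 0.0946 and 0.0664). The others overlapped there. The RNA sensor genes Dhx58, Ddx58 and Ifih1, also named after their values were seen, fell in both arms, with log2 fold changes of -2.39, -1.70 and -1.40 in CIRBP and -3.22, -1.77 and -1.72 in labelled si-CIRBP. Irf9 and Stat2, which both encode subunits of ISGF3, were called lower in both arms. Irf9 was at 10.2, 10.7 and 10.5 FPKM in CIRBP, against 53.3, 53.1 and 55.5 FPKM in NC, and at 7.88, 10.3 and 9.21 FPKM in labelled si-CIRBP, against 55.3, 47.4 and 49.9 FPKM in si-NC. Stat2 fell by 0.41 on the log2 scale in CIRBP and by 0.75 in labelled si-CIRBP. Irf7, which amplifies interferon production, was at 2.05, 2.29 and 2.23 FPKM in CIRBP, against 13.8, 13.4 and 14.3 FPKM in NC. It was at 5.14, 5.88 and 6.89 FPKM in labelled si-CIRBP, against 24.4, 61.6 and 57.5 FPKM in si-NC, where library 1 was the lowest. Ifnb1, the interferon beta gene, was too low to be tested. It was listed at 0 in CIRBP libraries 1 and 2 and at 0.0700 FPKM in library 3, against 0.439, 1.01 and 0.670 FPKM in NC, and listed at 0 in all 3 libraries labelled si-CIRBP, against 0.390, 0.644 and 0.342 FPKM in si-NC.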

How the data were processed

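Expression was used as FPKM per gene and library, as the authors computed it, per the file headers. The tools Bowtie2 2.3.3.1 and Cufflinks 2.2.1 were used, per the submitters' processing notes, which list GRCm38 and mm10 (mouse assemblies) as builds. Rat Ensembl identifiers label the rows, so which assembly the reads were aligned to is unclear. The sources used here give neither a strand setting nor an annotation version. Libraries were placed in groups by their titles. Whether they came from separate cultures is not given, so p-values measure only the spread between these libraries.

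The test was limma 3.58.1 (R 4.3.3, moderated by eBayes with its trend option) applied to log2(FPKM + 1). It covered the 14257 genes that reached 1 FPKM in 3 or more libraries, with 1 coefficient per group over all 12 libraries (8 residual and 2.53 prior degrees of freedom). P-values were two-sided, with Benjamini-Hochberg adjustment across every tested gene and calls made under 0.05. On simulated data with each group's own spread, the fit recovered the changes put in but, with its shared spread, made too many false calls in each comparison that uses the si groups. Fits of the 6 libraries compared and with a spread per group were therefore set beside it. Absolute depth is unknown, so no counting interval was computed, and a value of 0 can be a failed estimate. The ratio of low values (under 0.3 FPKM, tolerance 0.15%) gave relative depth. The genes, lists and role groups were chosen with earlier results of these data known. Values in all libraries are given for the 10 and 8 largest called changes of the 2 arms, the 4 most abundant genes and, added after their values were seen, genes called for the difference between arms, Oas2, Isg15 and, outside the list, Irf1 (1 group) and the signalling genes named so. Promoters came from RefSeq (GRCr8). Alternatives changed the pseudocount, filter, scaling, estimate of spread, replicate block and libraries used. One gene of the signalling list is not reported here by name.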

Additional observations from a re-analysis of the deposited data

Results flagged for a closer look

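For 10 genes the change differed between the 2 arms by the test of the difference itself (CIRBP minus NC less si-CIRBP minus si-NC, limma, adjusted p under 0.05, log2(FPKM + 1) scale). The difference was positive, a larger fall in labelled si-CIRBP, for Bst2 (1.40), Mx1 (1.37), Ifit3 (0.91), Ifit2 (0.86), Oas1a (0.78) and Lgals9 (0.59). It was negative, a larger fall in CIRBP, for Isg20 (-1.56), Trim25 (-0.59), Eif2ak2 (-0.36) and Trim21 (-0.35). Over all tested genes 6.87% had a positive and 10.9% a negative call, so the 4 negative calls among 37 are near the share of all genes. For Mx1 and Ifit3 the ratio of group means pointed the other way. The arms are different treatments with controls that differ themselves, so the treatment and the arm cannot be told apart.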

How the results depend on the processing

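In both arms all 37 tested genes were called lower, and none higher, under each other pseudocount, filter, scaling, spread estimate and block, and without each single library, with the largest adjusted p at 0.0101 in CIRBP against NC and 0.048 in labelled si-CIRBP against si-NC. Without the filter 37 and 38 of 39 were called lower. The count at or below -1 in CIRBP against NC depended on scaling. With libraries scaled to the same median, Ifi27 (-0.946), Ifi35 (-0.9675) and Gbp5 (-0.925) lay above -1 there. Counts for the difference between the arms moved more. The 6 positive calls became 3 with a pseudocount of 0.1, 4 to 11 without single libraries and 11 without si-CIRBP library 1 and si-NC library 1 together (chosen after seeing the data). The 4 negative calls became 2 with the replicate number as a block, 2 to 6 without single libraries and 7 without that pair of libraries. Beside the genes named with the results, Lgals9 (adjusted p = 0.0551, limma) lost its call with a pseudocount of 0.1, Ifit3 (0.153) with 0.5, Trim21 without the filter (0.0557) and with a spread per group (0.0766), and Trim21 (0.0715) and Trim25 (0.052) with the block. In si-NC against NC, Rsad2 (0.0978) and Parp14 (0.0503) lost theirs with a pseudocount of 0.1 and Parp14 (0.0603) with the block. In si-NC against NC the single lower call became 1 to 2 without single libraries and 5 without that pair. When libraries were scaled to the same median, the middle log2 fold change over all genes was 0.03 in place of -0.08 in CIRBP against NC and 0.06 in place of -0.04 in labelled si-CIRBP against si-NC. Calls over all genes were then 3757 lower and 4088 higher, against 4881 and 2814, and 1903 lower and 2420 higher, against 2924 and 1294. With the 6 libraries of labelled si-CIRBP and si-NC alone they were 889 and 266, and with a spread per group 1482 and 537. Deviations of same-numbered libraries correlated weakly at most (r = -0.09 to 0.1), and the numbers were not taken to pair them. In CIRBP against NC the same-numbered libraries had r = 0.097, 0.048 and 0.1. Those with different numbers had -0.083 to -0.008 in that comparison. With the block all 37 genes were called lower in each arm. The cause of the moved counts was not tested beyond the libraries left out. FPKM give no absolute depth, which limits values under 1 FPKM.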
